A study of Mus musculus with 8 samples.

Results

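Basement membrane and integrin genes were followed from mouse duct epithelium into organoid culture. The 37 genes, chosen by symbol, encode laminin chains, collagen IV chains, nidogens, perlecan, agrin, other basement membrane collagens, integrin subunits, and the dystroglycan, plakin and tetraspanin proteins that work beside them. All 37 were found among the 31228 genes of the deposited table. RNA was sequenced from 8 samples of C57BL/6 mice: 1 extrahepatic bile duct epithelium, 1 pancreatic duct epithelium, 3 bile duct organoids and 3 pancreatic duct organoids. Organoids are hollow cultures of epithelial cells. The ducts of all groups were dissected, minced and digested with collagenase IV. The epithelia then went directly into Trizol, whereas the organoids were embedded in Matrigel and sequenced after 3 to 4 passages. Their expansion medium held Wnt3A conditioned medium, EGF, R-Spondin-1, Noggin, FGF10, nicotinamide, N-acetylcysteine, B27 and Y27632, a kinase inhibitor. Wnt3A and Y27632 were withdrawn once luminal organoids had formed. The age and sex of the mice, and whether the organoids came from separate animals, were not stated, so p-values measure only the spread between these samples.

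The deposited FPKM values (reads per kilobase of exon and per unit of library size) imply 12876470 to 20828217 reads per library. Levels below are scaled FPKM, adjusted between libraries by a trimmed mean of log ratios, and differences are on the log2(scaled FPKM + 1) scale, which understates changes of weakly expressed genes. Relative to the deposited values, scaling shifted organoids against epithelium by -0.27 (bile duct) and -0.28 (pancreatic duct) in log2 units. The epithelia were not pure by their markers. The summed level of 8 fibroblast markers was 1872 (bile duct) and 1950 (pancreatic duct) in the epithelia and lay between 0.181 and 2.55 in organoids, where Lum was at 0 in every culture. Sums of 8 smooth muscle and pericyte markers were 2481 and 4219 against 0.354 to 1.76, and those of 8 endothelial markers 481 and 822 against 0.223 to 1.34. Acinar markers summed to 18415 and 36566 against 1.64 to 7.70, with Pnlip, Cpa1, Amy2b and Ptf1a at 0 in every organoid. Leukocyte markers summed to 444 and 436 against 2.63 to 12.6, and Schwann and neural markers to 75.0 and 108 against 1.40 to 4.12. Most of these markers reached 1 FPKM in the epithelia alone, so the sums are a description. The 8 epithelial markers summed to 2532 and 548 in the epithelia and to 4298 to 10859 in the organoids, and 7 of them rose. Mitochondrial genes held 24.9% and 18.8% of summed FPKM in the epithelia and 5.43% to 7.29% in the organoids. The part of these differences in the results below was not tested. In such bulk samples, fewer cells of a type and less RNA per cell cannot be told apart.

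**Figure D1:**
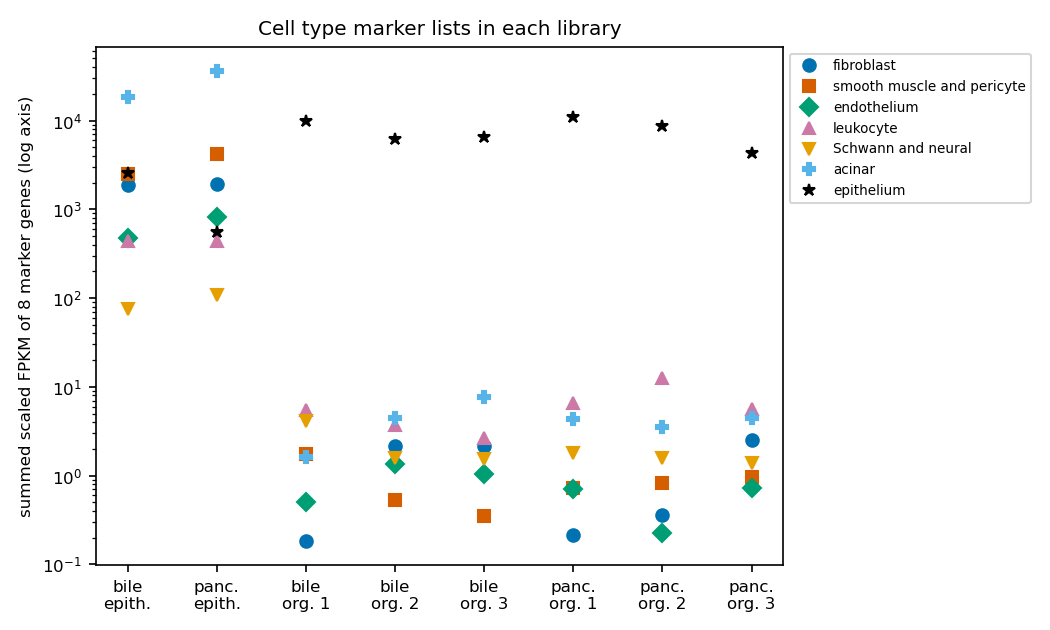
Summed scaled FPKM of 7 lists of 8 cell type markers (vertical log axis) in each of the 8 libraries (horizontal axis; bile duct or pancreatic duct epithelium or organoid), with a symbol for each list. Fibroblast markers lie at 1872 and 1950 in the epithelia and between 0.181 and 2.55 in the organoids, while epithelial markers are highest in the organoids.

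A basement membrane is the thin sheet of matrix under an epithelium and around vessels, muscle and nerve. Laminins, trimers of an alpha, a beta and a gamma chain, form the layer next to the cells, collagen IV trimers form a second network, and nidogens and perlecan link them. Cells hold on to the sheet through integrins, each a pair of an alpha and a beta subunit, and through dystroglycan. In ducts the epithelium and the stroma under it both contribute components. Matrigel is an extract of mouse tumour basement membrane, rich in laminin and collagen IV protein.

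Collagen IV genes lie in head-to-head pairs, so the bases at the paired starts are shown here for the pairs that overlap or lie closest, with the bases upstream of the genes of the integrin alpha subunits that rose. Sequences and starts are from RefSeq (GRCm38.p6), and gene ends are from the deposited table. The first is the stretch that lies in both Col4a2 and Col4a1, chr8:11312805-11312826, plus strand. The second is the whole stretch between Col4a4 and Col4a3, chr1:82586850-82586920, minus strand. The others lie before Itga3, chr11:95076802-95076964, and before Itga2, chr13:114932101-114932350, both on the minus strand. Capitals mark a GC box.
Col4a2 and Col4a1: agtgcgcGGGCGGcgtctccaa
Col4a4 and Col4a3: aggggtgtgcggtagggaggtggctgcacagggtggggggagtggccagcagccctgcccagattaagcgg
Itga3: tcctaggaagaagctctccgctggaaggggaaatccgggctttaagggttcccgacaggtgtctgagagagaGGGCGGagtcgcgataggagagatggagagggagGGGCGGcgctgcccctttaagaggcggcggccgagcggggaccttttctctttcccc
Itga2: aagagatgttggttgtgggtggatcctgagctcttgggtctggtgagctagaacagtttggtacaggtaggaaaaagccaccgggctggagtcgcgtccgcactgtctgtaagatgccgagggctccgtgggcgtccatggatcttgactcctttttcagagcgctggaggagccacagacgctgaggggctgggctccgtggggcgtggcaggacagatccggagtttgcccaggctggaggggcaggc

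Motifs were counted on both strands in RefSeq windows of 300 bases, from 250 before to 50 after a start, for the 28 members with a window, taking the first window listed for each gene. No motif searched is contained in another. The GC box GGGCGG was present in 21 of 28 members and in 35.9% of all 27025 genes with a window, which include noncoding genes. The CCAAT box was present in 10 of 28 and in 37.9% of all, and the TEAD motif GGAATG in 3 of 28 and in 14.6% of all. The AP-1 motif TGANTCA was in 0 of 28 first windows and in 7.93% of all, and the second window of Itga3 held 1 match. The first windows of Dst, Lamb3 and Lama2 lie 103370, 94295 and 2816 bases from the deposited starts, and those of Dst and Lama2 hold a GC box. Among the 25 members with a first window within 1000 bases of the deposited start, 19 held one. A match is a description of letters, not of binding.

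Organoids of both organs were compared with both epithelia in 1 fit over all 15034 genes that reached 1 FPKM in 2 or more libraries, with organ as a covariate, by limma's moderated test with Benjamini-Hochberg adjustment at 0.05. Of the 34 members tested, Lama2, Col4a4, Col4a6 and Itgb8 reached 1 FPKM only in the epithelia. The filter let them in through the side where they are high, so they could only come out lower, and their values are given as a description with no test. The other 30 reached 1 FPKM in both an epithelium and an organoid. Among these 30, 8 were higher in organoids and 11 lower, where 30.8% and 21% of the 12163 genes that did so were. The remaining 11 did not pass, and Lama1, Col4a3 and Col17a1 were too low to be tested. Over all 15034 genes, 27.6% were higher and 30.7% lower, of which 2067 genes reached 1 FPKM only in the epithelia and 804 only in organoids. The 8 that rose were the laminin chains Lama5 and Lamb3, agrin, the integrin subunits Itga2, Itga3, Itgb4 and Itgb6, and plectin. The 11 that fell came from every role except the other basement membrane collagens. Without the bile duct epithelium the calls of Lamb1, Itga2, Itga5, Itgb4, Itgb5 and Plec were lost. Without the pancreatic duct epithelium those of Lama4, Lamb1, Lamb3, Col4a5, Itga2, Itga5, Itgb4, Itgb6 and Plec were lost. Each of these fits had only 1 epithelium library left.

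**Figure D2:**
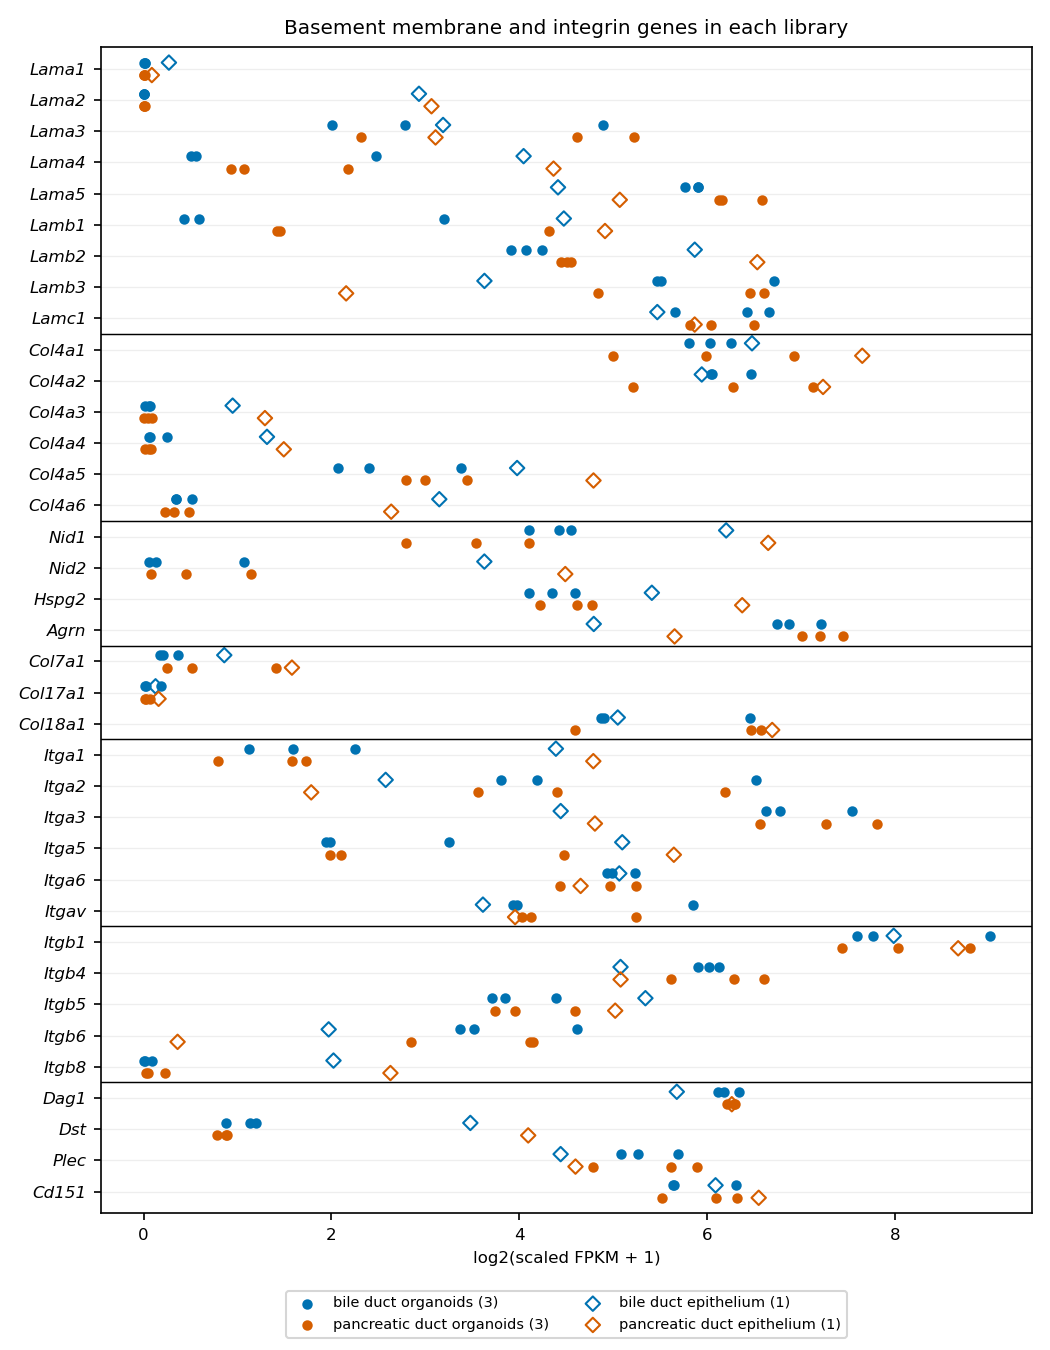
Level of each of the 37 genes, as log2(scaled FPKM + 1) on the horizontal axis, grouped by role with black lines between roles. Open diamonds are the 2 epithelia and filled circles the 6 organoids, in blue for bile duct and orange for pancreatic duct. The organoid circles of Lamb3, Itga3 and Agrn lie to the right of both diamonds, and those of Nid2, Dst and Lama2 to the left.

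Among the 7 laminin chains that could be tested in either direction, 2 rose, 3 fell and 2 did not pass. Lamb3 (ENSMUSG00000026639, chr1:193207699-193343878, plus strand) encodes the beta chain of the laminin that anchors epithelia, in which Lama3 is the alpha chain. Among the epithelia, that of the bile duct had Lamb3 at 11.4 scaled FPKM and that of the pancreatic duct at 3.46; in what follows, paired epithelial values are in this order. It stood at 104, 44.6 and 43.4 in bile duct organoids 1, 2 and 3, and at 86.6, 96.2 and 27.6 in pancreatic duct organoids 1, 2 and 3. All 6 cultures lay above both epithelia. The rise was 3.04 ± 0.61 (log2, SE; adjusted p = 0.0044), and without the pancreatic duct epithelium it was 2.25 with an adjusted p of 0.079.

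Its partner Lama3 differed between cultures. Lama3 was at 8.13 and 7.63 in the epithelia, at 28.7, 3.01 and 5.91 in bile duct organoids and at 23.5, 36.2 and 3.98 in pancreatic duct organoids. Cultures lay on both sides of the epithelia, and the difference of 0.49 ± 0.96 (SE) did not pass (adjusted p = 0.68).

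Lama5 (ENSMUSG00000015647, chr2:180176373-180225859, minus strand) encodes the broadly expressed alpha chain of epithelial basement membranes. Lama5 was at 20.3 and 32.6 in the epithelia, at 59.0, 53.3 and 58.9 in bile duct organoids and at 68.9, 95.1 and 70.3 in pancreatic duct organoids. Every culture was above both epithelia, and the rise was 1.33 ± 0.14 (SE, adjusted p = 0.00023). Lamc1, the gamma chain shared by most laminins, was at 43.4 and 57.4 in the epithelia and between 49.5 and 100.5 in the organoids, and its difference of 0.52 ± 0.30 (SE) did not pass (adjusted p = 0.18).

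The laminin chains that fell were Lama4, Lamb1 and Lamb2, and Lama2 was near 0 in culture. Lama2 and Lama4 are the alpha chains known from muscle, nerve and vessel basement membranes. Lama2 gave 1216 and 1601 reads in the epithelia and 2, 0, 0, 2, 0 and 2 reads in the organoids (bile duct 1 to 3, then pancreatic duct 1 to 3). Its level of 6.64 and 7.38 in the epithelia thus came down to at most 0.0077 in any culture. Lama4 was at 15.5 and 19.6 in the epithelia, at 4.55, 0.418 and 0.477 in bile duct organoids and at 1.09, 3.52 and 0.907 in pancreatic duct organoids. All cultures lay below both epithelia, a change of -2.92 ± 0.58 (SE, adjusted p = 0.0043; adjusted p = 0.0501 without the pancreatic duct epithelium).

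Lamb2, a beta chain of vessel, muscle and kidney basement membranes, fell from 57.5 and 91.8 to between 14.1 and 22.4, and kept a narrow range in culture. It fell by 1.91 ± 0.11 (SE, adjusted p = 9.8e-06). Lamb1 was at 21.2 and 29.2 in the epithelia, at 8.17, 0.344 and 0.509 in bile duct organoids and at 1.74, 19.0 and 1.69 in pancreatic duct organoids. All 6 lay below the epithelia, but over a 55.2-fold range. The change of -2.79 ± 1.01 (SE) had an adjusted p of 0.048, and that call was lost when bile duct organoid 2 or 3, pancreatic duct organoid 1 or 3, or either epithelium was left out (adjusted p from 0.080 to 0.23). Lama1, the embryonic alpha chain, stayed at or below 0.206 in every library.

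Because FPKM is per length, chains can be compared within a library as shares of their family, which no scaling between libraries alters. The length is that of all exons of a gene, so a gene expressed mainly as a short isoform would be understated. Among the alpha chains, Lama5 held 40.0% and 48.5% of the summed level in the epithelia and 64.0% to 93.9% in the organoids. Lama4 held 30.6% and 29.1% in the epithelia and at most 4.93% in the organoids, and Lama2 held 13.1% and 11.0% and at most 0.0083%. Lama3 was the other alpha chain with a sizeable share in culture, between 5.29% and 31.1%. Among the beta chains, the leading one was Lamb2 in the epithelia and Lamb3 in the organoids. Lamb2 held 63.8% and 73.8% in the epithelia and 13.7% to 41.6% in the organoids, whereas Lamb3 went from 12.6% and 2.78% to between 55.1% and 80.0%. Lamb1 held 23.6% and 23.4% in the epithelia and 0.566% to 13.9% in the organoids. In every organoid Lamb3 was the leading beta chain and Lama5 the leading alpha chain.

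**Figure D3:**
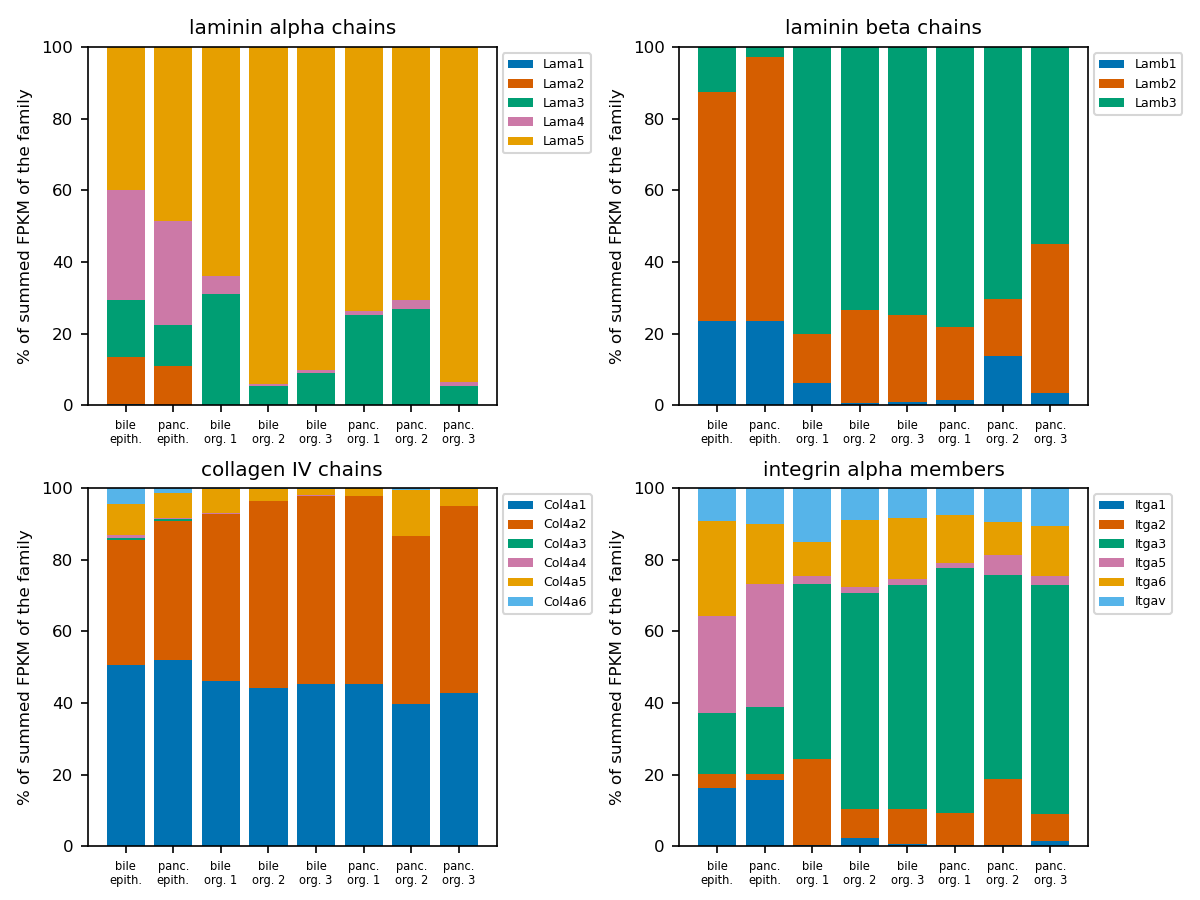
Share of each gene in the summed FPKM of its family (vertical axis, percent) in each library (horizontal axis), for laminin alpha chains, laminin beta chains, collagen IV chains and the 6 integrin alpha members. Lamb3 takes 55.1% to 80.0% of the beta chains in organoids against 12.6% and 2.78% in the epithelia, while Col4a1 and Col4a2 together dominate collagen IV in every library.

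Collagen IV chains had no member that rose. Of the 3 with 1 FPKM in an organoid, Col4a5 fell and the other two did not pass. Col4a1 and Col4a2, the chains of the common collagen IV trimer found in nearly all basement membranes, remained the most abundant pair. Col4a1 (ENSMUSG00000031502, chr8:11198423-11312826, minus strand) was at 88.2 in bile duct epithelium, with 64.5, 55.2 and 75.5 in the bile duct organoids. In the pancreatic duct it was at 200.4 in the epithelium and at 120.6, 30.9 and 62.7 in the organoids. The cultures were all below the epithelium of their organ, yet the difference of -1.06 ± 0.50 (SE) did not pass (adjusted p = 0.11).

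Col4a2 (ENSMUSG00000031503, chr8:11312805-11449287, plus strand) was at 60.6 in bile duct epithelium and at 65.5, 64.8 and 87.8 in its organoids, all above it. In the pancreatic duct it was at 149.7 in the epithelium and at 139.2, 36.1 and 76.5 in the organoids, all below it. These sides depend on the scaling: 1 of 3 bile duct organoids was above its epithelium with scaling on genes with at least 1 FPKM in every library, and 1 of 3 pancreatic duct organoids was above with FPKM as deposited or scaling on all genes above 0. The fit gave -0.39 ± 0.50 (SE, adjusted p = 0.53). The genes share the 22 bases printed above. The ratio of Col4a1 to Col4a2 FPKM was 1.46 and 1.34 in the epithelia and 0.984, 0.851 and 0.860 in the bile duct organoids. It was 0.866, 0.854 and 0.819 in the pancreatic duct organoids, so the ratio was lower in all 6 cultures than in either epithelium. That ratio was given no test.

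Of the less abundant chains, Col4a5 was at 14.8 and 26.7 in the epithelia and between 3.20 and 9.89 in the organoids, a change of -1.54 ± 0.35 (SE, adjusted p = 0.0077; 0.088 without the pancreatic duct epithelium). Col4a6, which pairs with it on the X chromosome 1308 bases away and is known from smooth muscle and some epithelia, was at 7.87 and 5.22 in the epithelia and between 0.174 and 0.426 in the organoids. The ratio of Col4a5 to Col4a6 was 1.87 and 5.11 in the epithelia and 11.8 to 34.3 in the organoids. This ratio was given no test, and Col4a6 reached 1 FPKM only in the epithelia. Col4a3 and Col4a4, whose starts lie 71 bases apart, were low throughout. Col4a4 gave 177 and 256 reads in the epithelia and 36, 9, 10, 2, 11 and 10 in the organoids. Col4a3 gave 104 and 192 reads and then 9, 2, 8, 1, 12 and 7, and was below the level needed for a test.

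Of the linkers, all 4 passed the test and agrin alone rose. Agrn (ENSMUSG00000041936, chr4:156165290-156197488, minus strand) encodes agrin, a heparan sulphate proteoglycan that binds laminin and dystroglycan. Agrn was at 26.7 and 49.4 in the epithelia, at 147, 116 and 107 in bile duct organoids and at 146, 174 and 128 in pancreatic duct organoids. All cultures lay above both epithelia, a rise of 1.86 ± 0.19 (SE, adjusted p = 0.00019). Hspg2, which encodes perlecan, the other large proteoglycan of the sheet, moved the opposite way. It was at 41.6 and 82.0 in the epithelia and between 16.2 and 26.3 in the organoids, a change of -1.45 ± 0.23 (SE, adjusted p = 0.0015).

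The nidogens, which bridge laminin and collagen IV, both fell. Nid1 was at 72.7 and 99.6 in the epithelia, at 16.3, 22.4 and 20.5 in bile duct organoids and at 10.7, 16.2 and 5.96 in pancreatic duct organoids. It fell by 2.51 ± 0.40 (SE, adjusted p = 0.0015). Nid2 (ENSMUSG00000021806, chr14:19751257-19811787, plus strand) was at 11.4 and 21.5 in the epithelia and at 1.10, 0.0957 and 0.0413 in bile duct organoids. In pancreatic duct organoids Nid2 was at 1.21, 0.0567 and 0.370. Its change was -3.57 ± 0.38 (SE, adjusted p = 0.00021). Nid1 thus stayed detectable at several FPKM in every culture, while Nid2 was below 1 in 4 of 6.

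The remaining basement membrane collagens did not pass or could not be tested. Col18a1, the source of endostatin, was at 32.1 and 102.6 in the epithelia, at 87.0, 28.3 and 29.0 in bile duct organoids and at 87.3, 94.3 and 23.1 in pancreatic duct organoids. Its cultures fell into high and low values within each organ, and the difference was -0.23 ± 0.67 (SE, adjusted p = 0.79). Col7a1, the anchoring fibril collagen, was at 0.815 and 1.99 in the epithelia and between 0.132 and 1.65 in the organoids (adjusted p = 0.060, or 0.039 with scaling on genes with at least 1 FPKM in every library). Col17a1, a hemidesmosome collagen, did not exceed 0.135 in any library.

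Of the 6 integrin alpha subunits, Itga2 and Itga3 rose, Itga1 and Itga5 fell, and Itga6 and Itgav did not pass. Itga3 (ENSMUSG00000001507, chr11:95044474-95076801, minus strand), a laminin receptor subunit of epithelia, was at 20.7 and 27.0 in the epithelia. It stood at 186, 98.0 and 109 in bile duct organoids and at 153, 223 and 93.6 in pancreatic duct organoids. Every culture was above both epithelia, and the rise was 2.47 ± 0.36 (SE, adjusted p = 0.00091).

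Itga2 and Itga1 encode the alpha subunits of the main collagen receptors and moved in opposite directions. Itga2 (ENSMUSG00000015533, chr13:114835916-114932041, minus strand), known from epithelia and platelets, was at 4.97 and 2.45 in the epithelia. It stood at 91.0, 13.0 and 17.3 in bile duct organoids and at 20.2, 72.1 and 10.8 in pancreatic duct organoids. All cultures were above both epithelia but ranged over 8.4-fold. The rise of 2.60 ± 0.88 (SE) had an adjusted p of 0.039, which became 0.063 without pancreatic duct organoid 1, 0.13 without the bile duct epithelium and 0.24 without the pancreatic duct epithelium. Itga1 (ENSMUSG00000042284, chr13:114958079-115101964, minus strand), known from smooth muscle, fibroblasts and endothelium, was at 20.0 and 26.7 in the epithelia. It came down to 2.01, 3.76 and 1.17 in bile duct organoids and to 0.738, 1.99 and 2.32 in pancreatic duct organoids, a change of -3.08 ± 0.37 (SE, adjusted p = 0.00038). The ratio of Itga2 to Itga1 was 0.249 and 0.0918 in the epithelia and 3.46 to 45.3 in the organoids.

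Itga5, the alpha subunit of the classical fibronectin receptor, was at 33.2 and 49.1 in the epithelia, at 8.52, 2.84 and 2.96 in bile duct organoids and at 2.96, 21.2 and 3.30 in pancreatic duct organoids. All lay below the epithelia, a change of -2.75 ± 0.70 (SE, adjusted p = 0.013; 0.083 and 0.096 without the bile duct and the pancreatic duct epithelium). Itga6, the laminin receptor subunit of hemidesmosomes, was at 32.5 and 24.2 in the epithelia and between 20.7 and 36.9 in the organoids (0.11 ± 0.21, SE, adjusted p = 0.69). Itgav, which pairs with Itgb6, was at 11.2 and 14.5 in the epithelia and at 56.8, 14.3, 14.7, 16.5, 36.9 and 15.4 in the organoids. Each culture was above the epithelium of its organ, but the difference of 0.74 ± 0.57 (SE) did not pass (adjusted p = 0.30). As shares of the 6 alpha members, Itga3 went from 16.9% and 18.8% in the epithelia to between 48.8% and 68.4% in the organoids, and Itga5 from 27.1% and 34.1% to between 1.32% and 5.42%.

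Of the 5 integrin beta subunits, Itgb4 and Itgb6 rose, Itgb5 fell, Itgb1 did not pass, and Itgb8 reached 1 FPKM only in the epithelia. Itgb6 (ENSMUSG00000026971, chr2:60598292-60722643, minus strand) is an epithelial subunit of a receptor that binds fibronectin and latent TGF-beta. Itgb6 gave 233 and 27 reads in the epithelia, levels of 2.92 and 0.286. It stood at 23.5, 9.36 and 10.5 in bile duct organoids and at 16.7, 16.4 and 6.21 in pancreatic duct organoids. All 6 were above both epithelia, a rise of 2.60 ± 0.53 (SE, adjusted p = 0.0047; 0.083 without the pancreatic duct epithelium). Itgb8, another partner of Itgav, gave 380 and 762 reads in the epithelia and 13, 2, 0, 3, 34 and 9 in the organoids.

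Itgb4, the hemidesmosome partner of Itga6, was at 32.8 in both epithelia and at 63.9, 58.9, 68.9, 96.5, 77.0 and 48.2 in the organoids. The rise was 1.01 ± 0.24 (SE, adjusted p = 0.0091; 0.062 and 0.10 without the bile duct and the pancreatic duct epithelium). Itgb5 was at 39.6 and 31.5 in the epithelia and between 12.1 and 23.2 in the organoids, a change of -1.14 ± 0.27 (SE, adjusted p = 0.0098; 0.11 without the bile duct epithelium). Itgb1, the common partner of most of the alpha subunits here, was the most abundant of the integrin members in every library. Itgb1 was at 253 and 408 in the epithelia, at 515, 193 and 217 in bile duct organoids and at 262, 445 and 173 in pancreatic duct organoids. The organoid values lay on both sides of the epithelia, with a difference of -0.22 ± 0.48 (SE, adjusted p = 0.71).

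Among dystroglycan, plakins and the tetraspanin, Plec rose, Dst fell, and Dag1 and Cd151 did not pass. Plec encodes plectin, which ties Itgb4 to keratin filaments. It was at 20.7 and 23.2 in the epithelia and at 50.6, 37.4, 33.0, 48.0, 58.6 and 26.7 in the organoids. The rise of 0.87 ± 0.30 (SE) had an adjusted p of 0.039, which was 0.051 with scaling by the median of ratios. It lay between 0.056 and 0.073 without bile duct organoid 1 or 2 or pancreatic duct organoid 1 or 2, and at 0.20 and 0.18 without the bile duct and the pancreatic duct epithelium. Dst (ENSMUSG00000026131, chr1:33908225-34308661, plus strand), the dystonin gene, has an epithelial hemidesmosome isoform and long isoforms of nerve and muscle, which gene totals do not separate. Dst fell from 10.2 and 16.1 to between 0.718 and 1.29, by 2.83 ± 0.20 (SE, adjusted p = 2.5e-05).

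Dag1, which encodes dystroglycan, had the narrowest range among organoids. It was at 50.2 and 75.9 in the epithelia and between 68.5 and 79.8 in the organoids, a difference of 0.27 ± 0.13 (SE, adjusted p = 0.13). With FPKM as deposited that difference was 0.54 (adjusted p = 0.014), without the pancreatic duct epithelium 0.51 (adjusted p = 0.044). Cd151, a tetraspanin bound to laminin-binding integrins, was at 67.2 and 92.8 in the epithelia and between 44.9 and 78.8 in the organoids (-0.40 ± 0.27, SE, adjusted p = 0.23).

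The organs were then taken apart, with no test, since each epithelium is 1 library. In the bile duct, 6 of 33 members were higher in organoids by at least 1 on the log2(scaled FPKM + 1) scale with all 3 cultures on that side, where 12.5% of all genes were, and 15 were lower by as much, where 26.3% of all genes were. In the pancreatic duct, 7 of 35 were higher, beside 15.2% of all genes, and 17 were lower, beside 25.3%. A gene was counted if the epithelium or the organoid mean reached 1 FPKM. Lama2, Col4a4, Col4a6 and Itgb8, among others, entered only through the epithelium and could only be lower. The numbers of lower members, and the shares of all genes beside them, include such genes and are a description. With FPKM as deposited, 10 of 33 members were higher in the bile duct, where 17.8% of all genes were. By this description 6 members were raised in both organs (Lama5, Lamb3, Agrn, Itga2, Itga3 and Itgb6) and 14 were lower in both. The share of all genes raised or lower in both organs was not counted, so whether these numbers are unusual was not tested. Of the 14, Lama2, Col4a4, Col4a6 and Itgb8 were below 1 FPKM in every organoid, and Lamb2, Col4a5, Nid1, Hspg2 and Itga5 remained at 1 FPKM or more in every organoid. The other 17 met neither description.

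**Figure D4:**
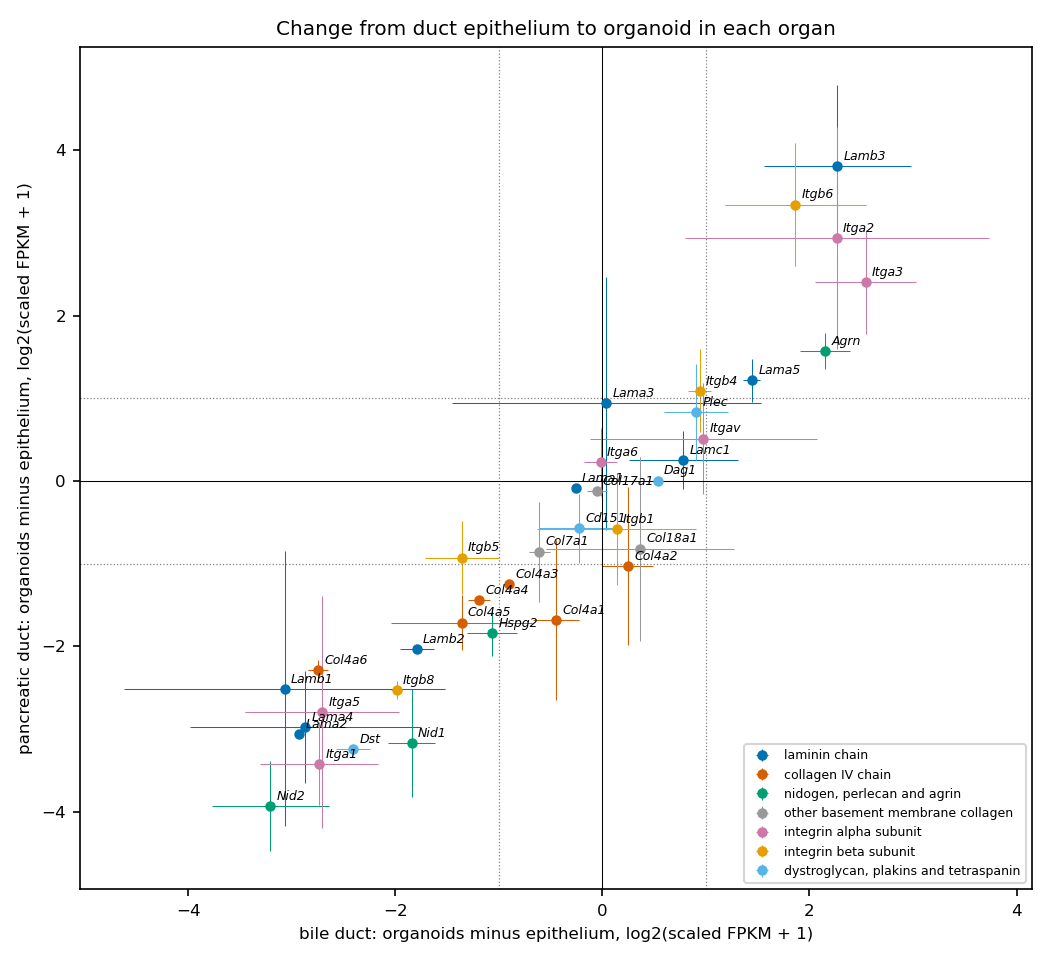
Difference of organoids from epithelium on the log2(scaled FPKM + 1) scale in the bile duct (horizontal axis) and in the pancreatic duct (vertical axis), 1 point per gene, coloured by role. Bars are the SD of the 3 organoids, and dotted lines mark differences of 1 and -1. The 6 genes raised in both organs lie at the upper right, the 14 lower in both at the lower left, and Col4a2 lies at 0.25 and -1.03.

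Between the epithelia, 2 of 35 members were higher in bile duct by at least 1 on the log2(scaled FPKM + 1) scale, where 9.1% of all genes were, and 3 were higher in pancreatic duct by as much, where 4.57% were. Higher in bile duct epithelium were Lamb3 and Itgb6, with bile minus pancreatic duct differences of 1.47 and 1.61 in log2 units. Higher in pancreatic duct epithelium were Col4a1, Col4a2 and Col18a1, with differences of -1.17, -1.29 and -1.64. These 5 became 6 with a pseudocount of 0.1, since the scale holds back weakly expressed genes. The member gained was Col7a1 (0.815 and 1.99 scaled FPKM), whose difference on the log2(scaled FPKM + 1) scale was -0.72. Itga2 (4.97 and 2.45), with 0.79 on that scale, was not gained. By any amount, 28 of 35 members were higher in the pancreatic duct library, where 52.8% of all genes were. Between these libraries the epithelial marker sum was higher in bile duct, the smooth muscle, endothelial, Schwann and neural, and acinar sums were higher in pancreatic duct, and the fibroblast and leukocyte sums were close (1872 and 1950, 444 and 436). Their part in these differences was not tested.

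Bile duct and pancreatic duct organoids were compared across the 12094 genes that reached 1 FPKM in 3 or more cultures, with the 6 organoids scaled among themselves. Limma called 0 of 27 members and 0% of all genes at an adjusted p under 0.05. At an unadjusted p under 0.05 there were 3 members, where 2.54% of all genes were: Lama5 and Lamb2, each with a bile minus pancreatic duct difference of -0.42, and Nid1, with 0.89. That number was 1 without bile duct organoid 2 and without bile duct organoid 3. These 3 were also the members whose groups did not overlap, where 6.76% of all genes did not. The median absolute difference over the 27 members was 0.18 and the median SE 0.38. A difference between organs of the size of that error was not detectable with 3 cultures a side. Lamb3, for example, differed by -0.05 ± 0.57 (SE) and Itga3 by -0.22 ± 0.38 (SE), intervals that leave room for sizeable differences either way.

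Many members varied widely among cultures. The median SD within an organoid group was 0.55 in log2 units over the 27 members and 0.21 over all genes tested. In 7 of 27 the highest culture was at least 4-fold above the lowest, where this held for 9.18% of all genes. Bile duct organoid 1 and pancreatic duct organoid 2 were the highest pair for 16 of 27 members, where they were for 20.3% of all genes. With the scaling of all 8 libraries it was 15, where 18.8% of all genes were, since Col18a1 then stood at 87.0 in bile duct organoid 1 and 87.3 in pancreatic duct organoid 1. That pair was picked out after the values were seen, so its count is a description. The 16 included members that rose (Lamb3, Itga2, Itga3, Agrn, Plec), members that fell (Lama4, Lamb1, Col4a5, Itga5, Itgb5) and members that did neither (Lama3, Col18a1, Itga6, Itgav, Itgb1, Cd151). Lamc1 ran the other way, at 49.5 and 55.4 in these cultures and between 64.9 and 100.5 in the other organoids. The proliferation gene Mki67 was at 23.4 and 18.0 in these cultures, at 30.3 in pancreatic duct organoid 1 and between 52.2 and 62.4 in the other organoids. Top2a, another proliferation gene, was at 44.2 and 31.8 in these cultures and at 41.8 in pancreatic duct organoid 1. It was between 55.8 and 60.1 in the other organoids. The part of proliferation in the pattern was not tested.

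**Figure D5:**
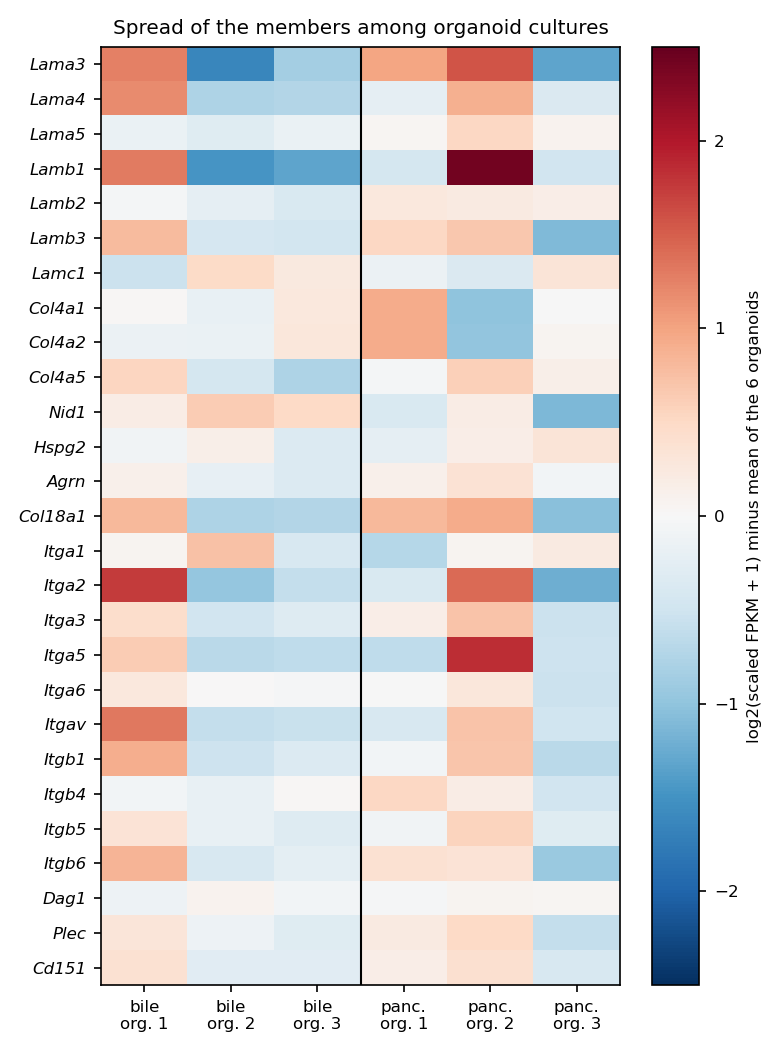
Deviation of each of the 27 genes tested in organoids from its mean over the 6 cultures, on the log2(scaled FPKM + 1) scale (colour, red above and blue below the mean), with genes in rows and cultures in columns. Bile duct organoid 1 and pancreatic duct organoid 2 are the reddest columns for genes such as Itga2, Lamb1 and Itgav, and the black line separates the organs.

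Genes around the members were read from the same fit, and counts of each list cover its genes with 1 FPKM in both an epithelium and an organoid, to be read beside the 30.8% higher and 21% lower among all such genes. Genes with 1 FPKM in the epithelia alone are given by their levels. Of 11 such genes among other basement membrane components, 2 rose and 5 fell, and 9 more reached 1 FPKM only in the epithelia. Among those that rose was Npnt, the nephronectin gene, which went from 22.5 and 20.6 to between 40.3 and 58.6. On the log2(scaled FPKM + 1) scale the widest differences among genes of this list named by the rule were those of Sparc, Fbln1 and Col15a1. Sparc went from 513 and 999 to at most 3.00 and Fbln1 from 89.5 and 55.3 to at most 0.738. Col15a1 went from 33.0 and 67.6 to at most 0.305. Of the other integrin subunits, 2 could be tested in either direction and fell, and 10 reached 1 FPKM only in the epithelia, among them Itga8, Itga9 and the leukocyte subunit Itgb2, which is also on the leukocyte marker list. Itga8 was at 17.5 and 50.0 in the epithelia and at most 0.0086 in the organoids.

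Integrin adaptors and signalling genes were mixed, with 5 of 25 higher and 8 lower, beside 30.8% and 21% of all such genes. Tns4, an epithelial tensin, went from 4.11 and 0.597 to between 25.4 and 53.0, and Fermt1, the epithelial kindlin, from 10.7 and 3.37 to between 25.2 and 69.9. Tns1 fell from 44.3 and 81.1 to between 0.137 and 4.24. Among other laminin and collagen receptors, 4 of 11 rose and 3 fell. Cd44 went from 64.5 and 15.0 to between 151 and 419, the syndecan gene Sdc1 from 44.0 and 32.8 to between 122 and 355, and Ddr1, the epithelial discoidin receptor, from 21.7 and 15.2 to between 47.4 and 80.8. Ddr2, its mesenchymal relative, went from 23.8 and 21.1 to at most 0.062, and Gpc3 likewise reached 1 FPKM only in the epithelia.

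Collagen folding, hydroxylation and cross-linking genes mostly fell, 10 of 16 against 2 that rose. Serpinh1, the collagen chaperone, was at 274 and 275 in the epithelia, at 26.9, 5.05 and 9.79 in bile duct organoids and at 5.01, 40.1 and 5.89 in pancreatic duct organoids. The cross-linking enzymes Lox and Loxl1 were at most 0.196 and 0.622 in the organoids, from 26.0 and 59.2 and from 48.0 and 41.4. Colgalt1 and Loxl4 rose. Of the matrix proteases and inhibitors, 3 of 24 rose (Plaur, Adam9 and Hpse) and 8 fell. Mmp2, with 1 FPKM in the epithelia alone, went from 82.7 and 90.2 to at most 0.150. Among dystroglycan complex and glycosylation genes, 2 of 15 rose and 3 fell. The sarcoglycan complex genes Sgca, Sgce and Sspn were at most 0.146, 0.021 and 1.07 in the organoids.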

How the data were processed

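Per the labels' protocols, poly-T beads selected the RNA of the 8 samples and an NEBNext Ultra kit was used for the libraries. The deposited values are FPKM in 1 table, read as such from the values, since the header names no unit. The submitters' processing notes list Bowtie2 2.2.3, HISAT2 2.1.0, TopHat2 and HTSeq 0.6.0 without their roles. The build and use of strand are not given in the sources used here, and 28575 of 31141 gene identifiers found in GENCODE M21 (GRCm38) had its coordinates. FPKM times exon length came out whole within 0.05 of a read in every library for 90.7% of genes, including 30 of 37 members. Read numbers are quoted for those, and cover counting error only.

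FPKM were scaled by a trimmed mean of log ratios (30% of ratios and 5% of levels trimmed on each side) on genes with at least 1 FPKM in 1 library. That gene set replaced all genes above 0 after the members' counts had been seen. The design had provided for this test where the table held FPKM: limma on log2(scaled FPKM + 1) with an intensity trend. On simulated data it recovered 45% of 2-fold and 82% of 4-fold changes between organoids and epithelia (15034 genes, 10 false among 137 calls). Between the organoid groups it recovered 53% and 87% (11986 genes, 8 false among 148 calls). Each simulation changed 200 genes, with independent normal noise and no rescaling. The fit of organoids against epithelia called 4144 genes higher and 4611 lower, far more than were changed in the simulation. The simulated rates of recovery and of false calls therefore need not hold for that fit. The comparison of single epithelia has no test.

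Members and lists were chosen with earlier results of these data known. All members may be named, and of each further list up to 3 genes per direction with the widest called change and a mean of at least 5 FPKM on the higher side. Some genes that met this rule are not reported here. Lists covered 7 member roles, 7 pathways and 7 cell types, and 249 of 250 listed genes were found. At most 8.45% of a member's exon bases lay in exons of another gene. Alternatives covered scaling, pseudocount, filter, trend, organ term, replicate block and leaving out each library. R 4.3.3, limma 3.58.1, Python 3.11.15, pandas 2.3.3, numpy 2.4.6 and matplotlib 3.10.9 were used. The 8 sample columns were all used.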

Additional observations from a re-analysis of the deposited data

Results flagged for a closer look

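Col4a2 was the member whose organoids lay on opposite sides of the epithelium in the organs. The bile duct organoids, all 3 above their epithelium, differed from it by 0.25 on the log2(scaled FPKM + 1) scale. The pancreatic duct organoids, all 3 below theirs, differed by -1.03. The sides depend on the scaling. With scaling on genes with at least 1 FPKM in every library the bile duct difference was 0.048, with 1 of 3 cultures above. With FPKM as deposited and with scaling on all genes above 0, the pancreatic duct difference was -0.75 and -0.89, with 1 of 3 cultures above. With 1 epithelium library per organ, no test of this difference was made. Levels in the organoids overlapped between organs, and the epithelia themselves stood at 60.6 and 149.7 scaled FPKM.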

How the results depend on the processing

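No member's difference between organoids and epithelia reversed while called. Of the 19 members called that reached 1 FPKM in an organoid, 16 kept their call in all 15 alternatives with both epithelia, and Itga2, Lamb1 and Plec lost it in some. Over all 17 alternatives, 9 kept their call throughout: Lama5, Lamb2, Nid1, Nid2, Hspg2, Agrn, Itga1, Itga3 and Dst. With both epithelia and all cultures kept, the settings that ended those calls gave adjusted p-values of 0.0502 and 0.061 for Itga2, 0.057 to 0.074 for Lamb1 and 0.051 to 0.092 for Plec. Leaving out the bile duct epithelium gave 5 members higher and 8 lower, with 2757 and 1657 of all genes. Leaving out the pancreatic duct epithelium gave 4 and 7, with 2425 and 1527 of all genes. The 4 higher without the pancreatic duct epithelium included Dag1, which did not pass with both epithelia and the scaling used here. In both of these fits, Lama2, Col4a4, Col4a6 and Itgb8 were not tested, as they reached 1 FPKM only in the epithelia. They are in the other counts of members lower given here, where the filter fixes their direction. The lone epithelium was then assumed to vary like the organoids, with fewer samples in the fit. Of all genes, 4144 were higher and 4611 lower, so 47.3% of calls were higher. This share was 60.0% with FPKM as deposited, 44.8% with scaling by the median of ratios, 54.7% with scaling on all genes above 0 and 36.7% with scaling on genes with at least 1 FPKM in every library (both of these added after seeing the data). Members higher and lower numbered 9 and 14 as deposited and with all genes above 0, 7 and 15 by the median of ratios, and 6 and 17 with genes in every library. All genes lower numbered 7435 with no filter and 2644 with a minimum of 5 FPKM, which change how many genes are tested. Members higher by at least 1 (log2) in bile duct organoids numbered 10 of 33 with FPKM as deposited, where 17.8% of all genes were.

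Between organoid groups, leaving out 1 culture called 0 to 11 of all genes, the 11 without pancreatic duct organoid 3, and 0 members. Members at an unadjusted p under 0.05 then numbered 1 to 3. The replicate block called 0 genes, with 2 members at an unadjusted p under 0.05. After centring within each organ, same-numbered organoids correlated at -0.10, -0.44 and 0.48. With so few cultures per organ, such values cannot decide whether same-numbered organoids were paired. Precision is limited by 1 library per epithelium, and for Lama2, Col4a3, Col4a4 and Itgb8 by a few reads in culture.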

Other observations

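Fn1, which encodes fibronectin, the ligand of the receptor that contains Itga5, was singled out after its values were seen. In the epithelia of the bile duct and the pancreatic duct it was at 67.1 and 209 scaled FPKM. In culture it was at 164, 3.08 and 3.99 in bile duct organoids 1, 2 and 3 and at 21.7, 184 and 10.7 in pancreatic duct organoids 1, 2 and 3. Bile duct organoid 1 and pancreatic duct organoid 2 were its highest cultures, as they were for 20.3% of all genes tested in organoids. They also were for Itga5, at 8.52 and 21.2, and for the collagen chaperone Serpinh1, at 26.9 and 40.1. Lamc1, Col4a1 and Col4a2 were among the genes for which they were not.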
